A study of Mus musculus with 4 samples.

Results

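The mitochondrial genome of the mouse carries 37 genes, and all 37 were listed among the 55335 genes of the deposited count tables. They were taken as every gene whose symbol starts with mt-, after the exon counts of each gene identifier had been summed. The set holds 2 ribosomal RNA (rRNA) genes, 13 protein-coding (mRNA) genes and 22 transfer RNA (tRNA) genes. Together they held 703431 counted fragments in 4 RNA-seq libraries.

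All libraries came from mice of 8 to 12 weeks whose backs had received cream with 5% imiquimod, an agonist of Toll-like receptor 7 that gives a psoriasis-like inflammation, daily for 5 days. Mice got either 15 or 62.5 mg of the cream a day, and how these amounts fall over the libraries is not stated. The control group was Mettl3fl/fl, with floxed alleles of the catalytic subunit of the enzyme that places N6-methyladenosine on nuclear-encoded RNA, and the knockout group was Mettl3fl/fl;Cd4-Cre, in which the Cd4 promoter drives Cre in developing T cells. Each group had 2 libraries of skin cells that the labels call CD4+ T cells, made from dermal suspensions with oligo-dT priming and SMART amplification. Nothing states how many mice gave a library, so a p-value here speaks only of the spread among the libraries.

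Mitochondrial DNA is a small circle that is transcribed from both strands as long precursors. The tRNAs lie between most of the rRNA and mRNA genes, and their excision releases the other transcripts, most of which then receive short poly(A) tails. The mRNAs encode core subunits of respiratory complexes I, III, IV and V, and the rRNAs form the core of the mitochondrial ribosome. All remaining subunits, the polymerase and the ribosomal proteins are encoded in the nucleus.

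Totals were between 3614418 and 4537006 counted fragments per library, and fragments fell in 11424 genes in control 2 and in 16273 to 20100 genes in the other 3. Mettl3 had 195 and 49 fragments in controls 1 and 2, with 121 and 158 in knockouts 1 and 2, all in 6 of its 71 exon entries. Which exons Cre removes is not stated, so these counts check nothing about the deletion. The labelled cell type was checked with 8 T cell markers, whose summed level in CPM (TMM-scaled counts per 1e6 fragments) was 953.3 and 312.5 in controls 1 and 2, with 264.3 and 141.6 in knockouts 1 and 2. All 8 were detected in 3 libraries, and Cd4 was at 0 in control 2. The 8 markers of macrophages and monocytes summed to 7092 to 16280 CPM in controls and 22710 to 27830 in knockouts, above the T cell list in every library. Exon entries that share coordinates went uncounted, so this ranks counted fragments and not the RNA of both lists. The 8 keratinocyte markers summed to 1640 CPM in control 1 and 23470 in control 2, against 2380 and 1093 in the knockouts, with Lor at 0 in control 2. Control 2 thus stood apart in the number of genes with fragments and in the keratinocyte markers, though not in the T cell list. The fold changes of the gene lists and the class shares are given with and without control 2.

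Several mitochondrial genes have copies in the nuclear genome, and which bases differ between gene and copy bears on what could be counted. Per the file headers, a fragment that aligned to more than 1 place was not counted. To show how close the copies are, the first bases of mt-Nd3, a complex I subunit, and of its chromosome 1 copy Gm28438 are given with their single differing base in capitals, T3C counted from the first base of mt-Nd3. The next pair is mt-Cytb, the complex III subunit cytochrome b, and its chromosome 4 copy Gm11410 from base 2 of mt-Cytb, with the 3 differing bases (G14A, C24T and C61T) in capitals. The last is the start of mt-Atp6, an ATP synthase subunit, which has no base that differs from its copy Gm10925. All sequences are from GENCODE M21 transcripts (GRCm38).
mt-Nd3: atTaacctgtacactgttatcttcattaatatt
Gm28438: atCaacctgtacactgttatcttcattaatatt
mt-Cytb: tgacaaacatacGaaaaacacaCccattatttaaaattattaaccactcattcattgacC
Gm11410: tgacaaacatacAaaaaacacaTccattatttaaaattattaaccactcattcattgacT
mt-Atp6: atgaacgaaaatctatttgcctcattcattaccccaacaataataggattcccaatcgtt

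The tRNA genes are short and lie close together. The 3 that held most tRNA fragments are shown on their own strand, with the anticodon in capitals (the middle of a 7-base loop closed by 5 base pairs). They carry proline (mt-Tp), asparagine (mt-Tn) and cysteine (mt-Tc).
mt-Tp: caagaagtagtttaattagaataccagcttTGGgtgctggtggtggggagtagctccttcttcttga
mt-Tn: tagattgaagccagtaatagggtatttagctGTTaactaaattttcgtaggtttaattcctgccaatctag
mt-Tc: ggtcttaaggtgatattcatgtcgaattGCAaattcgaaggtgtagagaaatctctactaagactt

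The share of counted fragments in mitochondrial genes differed more between libraries of one genotype than between the genotypes. Control 1 had 2.76% (exact 95% binomial interval 2.745 to 2.775) and control 2 had 7.979% (7.951 to 8.007). Knockout 1 had 2.29% (2.276 to 2.304) and knockout 2 had 4.387% (4.368 to 4.406). Control 2 was highest and knockout 1 lowest, 3.48-fold apart, and knockout 2 was 1.59 times control 1, so the groups overlapped. Controls averaged 5.369% ± 3.69 and knockouts 3.338% ± 1.48 (SD, n = 2 each; two-sided exact permutation test, p = 0.667, where 2 against 2 cannot give less than 0.333). The intervals cover counting error only, since no molecular identifiers are described. In these bulk libraries fewer mitochondria-rich cells and less mitochondrial RNA per cell cannot be told apart.

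These shares are of counted fragments, not of all RNA. A fragment that overlapped more than 1 annotated exon entry was left out by the counting, and 545076 of the 841606 entries (64.8%), all nuclear, share their coordinates with another entry and held 0 fragments. Each mitochondrial gene has 1 exon entry, and none of the 37 shares its coordinates. The denominator therefore leaves out much of the nuclear RNA, in all libraries by the same annotation. The countable part can differ between nuclear genes, so any ranking of nuclear genes or lists here is by counted fragments.

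All 3 classes had their highest share in control 2. rRNA took 1.114% and 3.432% of counted fragments in controls 1 and 2, with 0.9103% and 1.881% in knockouts 1 and 2. For mRNA the shares were 1.643%, 4.533%, 1.376% and 2.501%, in the order control 1, control 2, knockout 1 and knockout 2 that all sets of 4 values follow. Both classes ranked the libraries alike, with control 2 above knockout 2, control 1 and knockout 1, and their groups overlapped (two-sided exact permutation test over libraries, p = 0.667 for each). tRNA was a trace class with 131, 504, 148 and 213 fragments, or 0.002887%, 0.01394%, 0.003428% and 0.004893%, and there control 1 was the lowest (exact permutation p = 1.0). Without control 2 the difference between knockout and control means turned from -2.031 to 0.579 percentage points for all mitochondrial genes, from -0.8772 to 0.282 for rRNA and from -1.149 to 0.296 for mRNA.

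**Figure D1:**
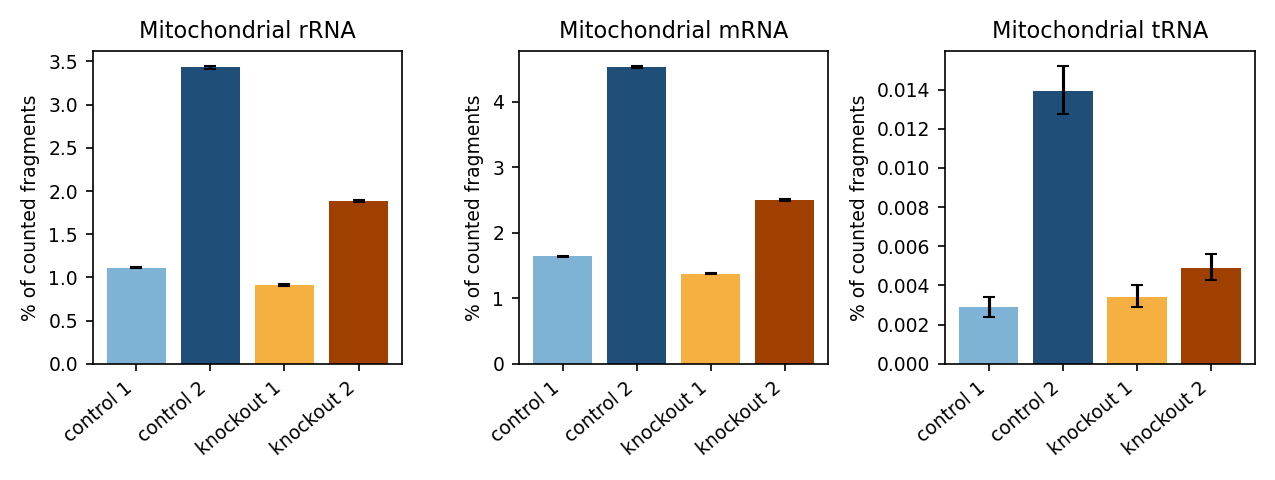
Share of counted fragments (percent, each axis from 0) in mitochondrial rRNA, mRNA and tRNA genes for each library, with bars for the share and whiskers for its exact 95% binomial interval, which covers counting error only. Control 2 is highest in all 3 classes, at 3.432%, 4.533% and 0.01394%.

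Within the mitochondrial fragments, the classes kept similar proportions although the total varied. rRNA was 40.37% and 43.01% of mitochondrial fragments in controls 1 and 2, with 39.75% and 42.88% in knockouts 1 and 2. The ratio of rRNA to mRNA fragments was 0.6783, 0.757, 0.6614 and 0.7523, so the libraries with more mitochondrial fragments, control 2 and knockout 2, had the higher ratios in both genotypes. The groups overlapped for both quantities (exact permutation test, p = 0.667). mRNA was 56.81% to 60.1% and tRNA 0.1046% to 0.1748% of mitochondrial fragments.

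The large-subunit rRNA gene mt-Rnr2 (chromosome M, 1094 to 2675, plus strand) was the most abundant mitochondrial gene by counts in each library. It had 38317 and 90654 fragments in controls 1 and 2, with 30548 and 61628 in knockouts 1 and 2. The small-subunit gene mt-Rnr1 (M, 70 to 1024, plus) had 12235, 33384, 8747 and 20269 fragments. Both were highest in control 2 and lowest in knockout 1. Per length, mt-Rnr2 reached 5287, 15130, 4820 and 9209 TMM-scaled CPM per kb and mt-Rnr1 2797, 9227, 2286 and 5017, so mt-Rnr2 exceeded mt-Rnr1 in each library on this scale too. The ratio of mt-Rnr2 to mt-Rnr1 fragments was 3.132 and 2.715 in controls, against 3.492 and 3.041 in knockouts, and the groups overlapped.

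The 13 mRNA genes fell into an abundant set of 7 and a nearly uncounted set of 6. The abundant set was mt-Nd1, mt-Nd2, mt-Nd4, mt-Nd5 and mt-Nd6 of complex I, mt-Co1 of complex IV and mt-Cytb of complex III. They held 24547.2 to 82751.3 fragments per kb over the 4 libraries. The other 6 were mt-Co2, mt-Atp8, mt-Atp6, mt-Co3, mt-Nd3 and mt-Nd4l, which follow one another on the genome from 7013 to 10173, and they held 107.7 to 807.6 fragments per kb. These 6 make up 26.3% of the mRNA genes' length but held 80 of 74531 mRNA fragments in control 1, 792 of 163845 in control 2, 144 of 59409 in knockout 1 and 139 of 108868 in knockout 2. That is 0.1073%, 0.4834%, 0.2424% and 0.1277% of mitochondrial mRNA fragments, so the gap was present in each library and in both genotypes.

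The nearly uncounted stretch coincides with a nuclear copy of the same genes. On GRCm38 chromosome 1, 7 unprocessed pseudogenes lie on the minus strand from 24611535 to 24616197 (4663 bases) and match mt-Co1, mt-Co2, mt-Atp6, mt-Co3, mt-Nd3, mt-Nd4l and mt-Nd4. Identity was 100% over 681 bases for mt-Co2 (Gm28661), 678 for mt-Atp6 (Gm10925), 783 for mt-Co3 (Gm28437), 294 for mt-Nd4l (Gm10222) and 876 for mt-Nd4 (Gm28439), and 99.71% over 345 bases for mt-Nd3 (the Gm28438 pair printed above). Windows of 50 bases that also occur in a nuclear transcript made up 98.0% to 100% of the windows of mt-Co2, mt-Atp6, mt-Co3, mt-Nd3 and mt-Nd4l. For mt-Rnr1, mt-Nd1, mt-Nd6 and mt-Cytb the share was 0, and the mt-Cytb pair printed above differs too often for a window of that length to match. The chromosome 1 copies themselves held 71, 443, 95 and 97 fragments in control 1, control 2, knockout 1 and knockout 2.

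Genes that shared 50-base windows with nuclear transcripts over only part of their length held far more fragments. mt-Nd4, with 62.2% of its 50-base windows in nuclear transcripts, had 7281, 17284, 5445 and 11256 fragments, and 502 of its 1378 bases lay outside any shared window. mt-Co1, at 51.1%, had 19509, 34376, 18606 and 28868 fragments, with 388 of 1545 bases outside. mt-Co1 also matches Gm13340 on chromosome 2 (97.6% over 1545 bases), and mt-Nd2 and mt-Nd5, at 8.2% and 7.6%, match copies on chromosomes 2 and 13. mt-Atp8, a small ATP synthase subunit, held 3, 44, 5 and 1 fragments although no window of it was found in an annotated nuclear transcript. The chromosome 1 copies of its neighbours mt-Co2 and mt-Atp6 are 233 bases apart, the same distance as between the matched ends on the mitochondrial genome, and the sequence between them was not compared. mt-Atp8 also overlaps mt-Atp6 by 43 bases, where fragments of either gene were not counted. How many fragments the counting dropped in these genes was not tested, and their low counts are not read here as low levels.

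**Figure D2:**
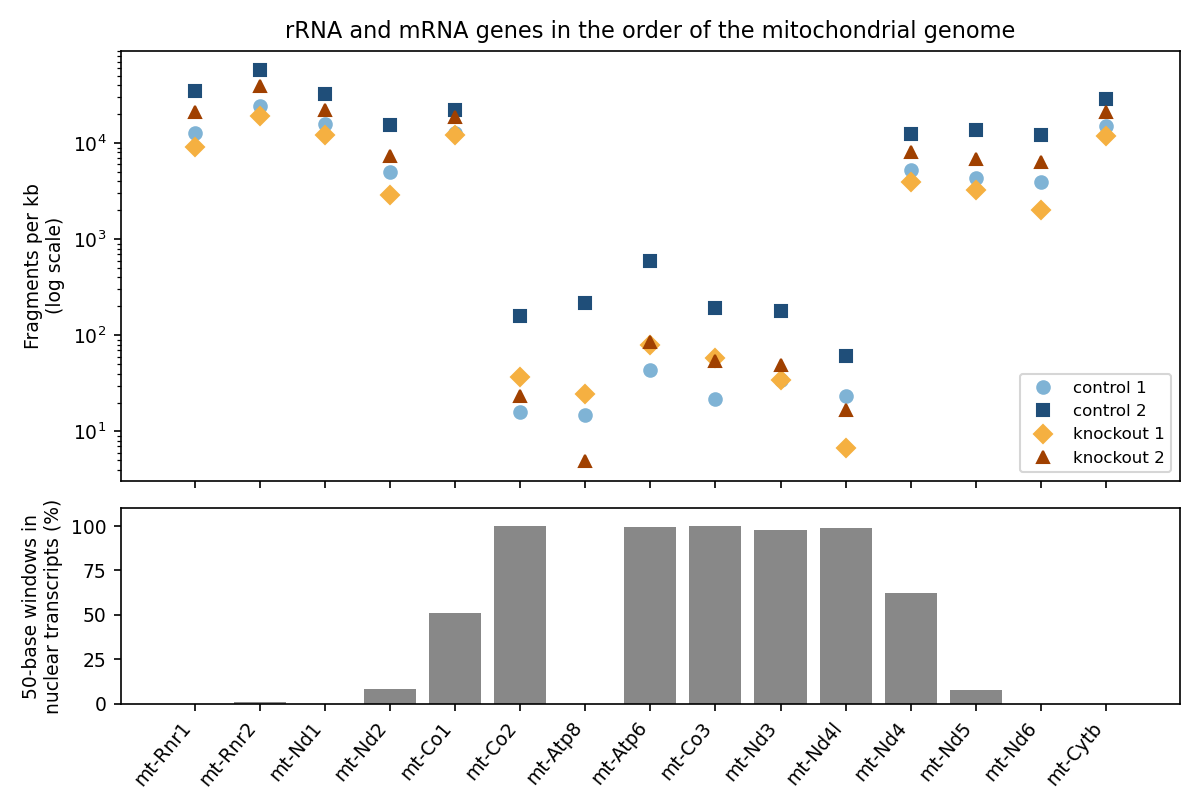
Upper panel, fragments per kb (log scale) of the 2 rRNA and 13 mRNA genes in the order of the mitochondrial genome, with 1 symbol per library. Lower panel, percent of each gene's 50-base windows that occur in a nuclear transcript. The 6 genes from mt-Co2 to mt-Nd4l lie far below the others in all 4 libraries, and 5 of them have 98.0% to 100% of their windows in nuclear transcripts.

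Complex I subunits among the abundant genes had the same library order as the total. mt-Nd1 (M, 2751 to 3707) had 15300 and 31286 fragments in controls 1 and 2, with 11659 and 20948 in knockouts 1 and 2. mt-Nd2 (3914 to 4951) had 5244, 16118, 3021 and 7697, and mt-Nd5 (11742 to 13565) had 7896, 24768, 5998 and 12615. Each was highest in control 2, then knockout 2, and lowest in knockout 1. mt-Nd6 (13552 to 14070), the only mRNA gene on the minus strand, had 2060, 6300, 1047 and 3333. Per length it was the lowest of the 7 abundant mRNA genes in each library, at 866.4, 3204, 503.5 and 1518 CPM per kb. Counting ignored strand, so its fragments cannot be told apart from RNA of the opposite strand.

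mt-Cytb (14145 to 15288) had 17161, 32921, 13489 and 24012 fragments in control 1, control 2, knockout 1 and knockout 2. Per length, mt-Cytb and mt-Nd1 were close to each other, at 3275 against 3490 CPM per kb in control 1, 7596 against 8629 in control 2, 2943 against 3041 in knockout 1 and 4962 against 5175 in knockout 2. The 4 libraries spanned a wider range in either gene than this gap. mt-Co1 (5328 to 6872), the catalytic subunit of complex IV, had the smallest ratio of highest to lowest library among the abundant mRNA genes, at 2756, 5873, 3006 and 4417 CPM per kb, and in it knockout 1 exceeded control 1.

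No mitochondrial gene passed the test between genotypes. Of the 37, 17 passed the filter on low counts (2 rRNA, 11 mRNA and 4 tRNA genes) and 20 did not (mt-Atp8, mt-Nd4l and 18 tRNA genes). edgeR's quasi-likelihood test called 0 of the 17, beside 0% of the 12434 genes tested. None had an unadjusted p under 0.05 (lowest 0.232), beside 1.5% of all genes, and each adjusted p was 0.9997. DESeq2 called none either, beside 0.137% of all genes, and gave no adjusted p for mt-Tl1, mt-Tm and mt-Nd3.

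Fitted log2 fold changes of knockout against control were below 0 for 17 of 17 tested mitochondrial genes, beside 43.1% of all genes. Their median was -0.88, beside 0.20 for all genes tested. That direction rested on control 2, which was highest of the 4 libraries for 17 of 17. Knockout 2 exceeded control 1 for 16, and knockout 1 was below control 1 for 9. Without control 2 the fold change was above 0 for 16 of the 17, beside 52.3% of 15044 genes.

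By class, the median log2 fold change was -0.63 for the 2 rRNA, -1.01 for the 11 mRNA and -0.82 for the 4 tRNA genes tested. Controls averaged 16150 ± 11000 CPM of mt-Rnr2 and knockouts 11100 ± 4910 (SD, n = 2 each), or -0.54 ± 0.69 (standard error) as a log2 fold change (edgeR, adjusted p = 0.9997). mt-Nd2 had 2700 ± 2200 against 1287 ± 753 CPM, or -1.07 ± 0.82 on the log2 scale, and mt-Co1 6666 ± 3400 against 5734 ± 1540 CPM, or -0.22 ± 0.57. The spread between the controls exceeded the difference between group means for all 3. The other abundant mRNA genes and mt-Rnr1 lay between -1.01 (mt-Nd6, standard error 0.88) and -0.46 (mt-Cytb, standard error 0.62). Among the nearly uncounted genes, mt-Atp6 had 30, 408, 54 and 58 fragments, mt-Co2 11, 108, 25 and 16, mt-Co3 17, 151, 46 and 42, and mt-Nd3 12, 63, 12 and 17. mt-Nd4l, with 7, 18, 2 and 5, was not tested. Control 2 alone was high in each of these, and the fold changes of the 4 tested ran from -2.07 (mt-Atp6, standard error 1.53) to -1.02 (mt-Co3, standard error 1.61).

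**Figure D3:**
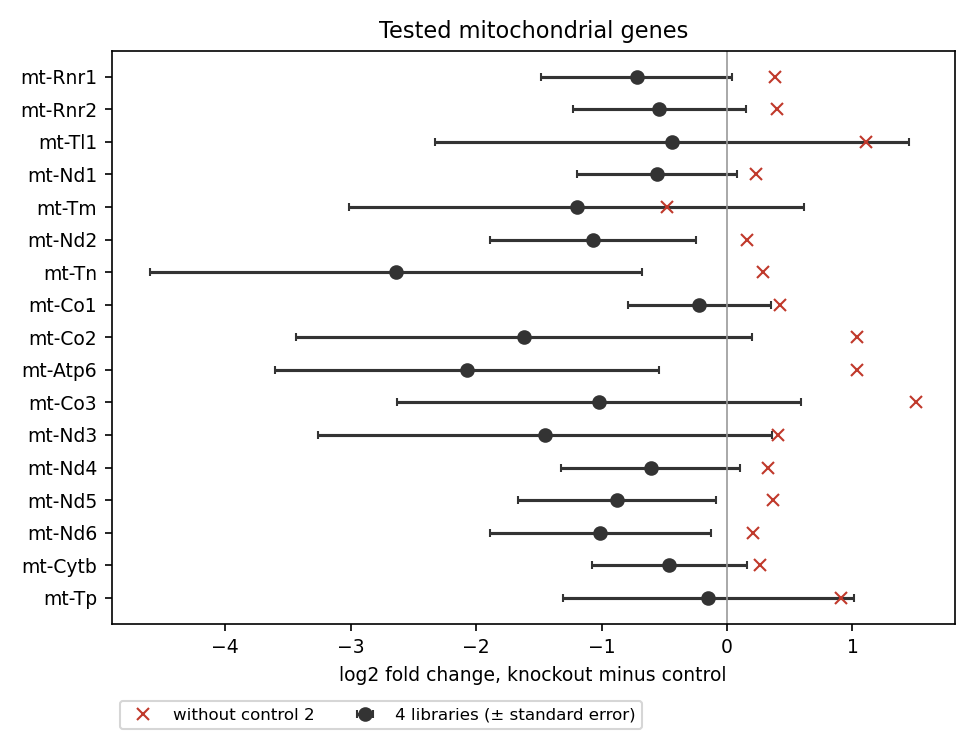
Fitted log2 fold change (knockout minus control) of the 17 tested mitochondrial genes with all 4 libraries (circles, bars are 1 standard error) and without control 2 (crosses). With all libraries each value is below 0, and without control 2 each except mt-Tm at -0.48 is above 0.

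Shares within the mitochondrial fragments are taken relative to the mitochondrial total of each library, and here too no difference between genotypes passed a test. Of 35 shares and ratios compared, the class shares of all counted fragments included, 5 did not overlap between the groups. All 5 were taken within mitochondrial fragments. Each has the smallest p that 2 against 2 libraries allow (exact permutation p = 0.333 each, Benjamini-Hochberg adjusted p = 0.973). mt-Nd2 was 4.188% and 5.589% of mitochondrial fragments in controls, against 3.056% and 4.03% in knockouts. The ratio of mt-Co1 to mt-Nd2 fragments was 3.72 and 2.133 in controls and 6.159 and 3.751 in knockouts. The narrowest gap in that ratio, between control 1 and knockout 2, was small beside the spread within either group. Complex IV genes made up 26.21% and 21.14% of counted mRNA fragments in controls and 31.44% and 26.57% in knockouts. Nearly all of these were mt-Co1 fragments, with mt-Co2 and mt-Co3 nearly uncounted. The remaining quantities without overlap were the mt-Nd4l share, with 18 or fewer fragments a library, and the mt-Tp share of tRNA fragments.

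mt-Co1 was the gene whose share varied most in percentage points. It was 15.58% and 11.92% of mitochondrial fragments in controls 1 and 2, with 18.82% and 15.12% in knockouts 1 and 2. Knockout 2 lay between the controls, so the groups overlapped. mt-Nd6 had the opposite order, at 1.645%, 2.185%, 1.059% and 1.745%, and the ratio of mt-Co1 to mt-Nd6 fragments ran from 5.457 in control 2 to 17.77 in knockout 1. mt-Rnr2 (30.6% to 32.27%), mt-Nd1 (10.85% to 12.22%) and mt-Nd4 (5.508% to 5.993%) kept nearly fixed shares. mt-Nd5 was 6.306%, 8.588%, 6.068% and 6.605%, again highest in control 2, and mt-Cytb 13.71%, 11.42%, 13.65% and 12.57%, lowest there. By complex, complex I genes made up 50.72%, 58.49%, 45.76% and 51.32% of counted mRNA fragments in the same order, and the complex III gene mt-Cytb 23.03%, 20.09%, 22.71% and 22.06%. With mt-Co2, mt-Co3, mt-Atp6 and mt-Atp8 nearly uncounted, these shares are not read as the proportions of the complexes in mitochondrial mRNA.

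**Figure D4:**
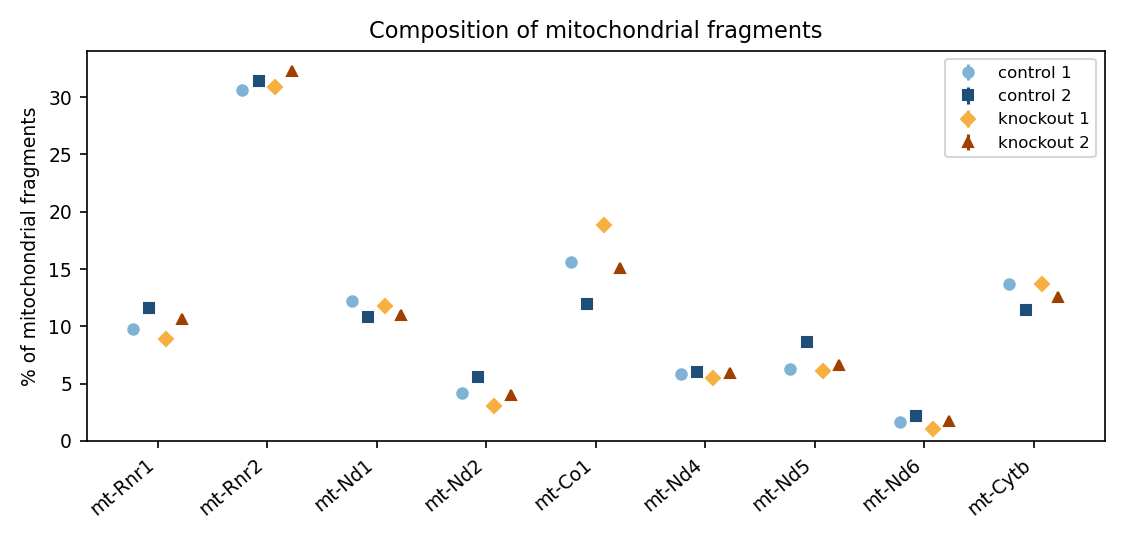
Share of mitochondrial fragments (percent) of the 2 rRNA genes and the 7 abundant mRNA genes, with 1 symbol per library; exact 95% binomial intervals are about as small as the symbols and cover counting error only. mt-Co1 runs from 11.92% in control 2 to 18.82% in knockout 1, while mt-Rnr2 stays between 30.6% and 32.27%.

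The tRNA genes held 996 fragments in all. mt-Tf, mt-Td and mt-Tk (phenylalanine, aspartate and lysine) had none in any library, 14 genes including these had fewer than 10 in each, and 8 had 10 or more in at least 1. With 0 fragments, a level of up to 0.655 to 0.792 CPM remains possible (3 fragments in each library), and since mature tRNAs are short and end without a poly(A) tail, these counts are not read as tRNA levels. mt-Tp, mt-Tn and mt-Tc, the 3 printed above, held 719 of the 996 (72.2%). mt-Tp (M, 15356 to 15422, minus strand) is the last annotated gene, with none between it and the end of the numbering, and a 32-base stretch without annotation separates mt-Tn (5089 to 5159, minus) from mt-Tc (5192 to 5257, minus). The other 19 tRNA genes had 29 or fewer fragments in any library, and apart from mt-Tf they have at most 5 unannotated bases on either side. mt-Tf starts at the first base of the numbering, so on the circle it borders the same unannotated stretch as mt-Tp, and it had no fragments. A fragment that reached a neighbouring gene was not counted, and whether the tRNA counts depend on this spacing was not tested. The 5 tRNA genes between mt-Co1 and mt-Nd4 held 18 fragments in all.

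mt-Tp led the tRNA genes in each library and had 71 and 187 fragments in controls 1 and 2, with 93 and 149 in knockouts 1 and 2. It was 54.2% and 37.1% of tRNA fragments in controls, against 62.84% and 69.95% in knockouts, without overlap (exact permutation p = 0.333). mt-Tn had 9, 108, 9 and 11 fragments and mt-Tc 6, 67, 3 and 6, so control 2 stood alone in both. The lower mt-Tp share in control 2 goes with these counts of mt-Tn and mt-Tc there. Genes on the minus strand, 8 of the 22 with mt-Tp, mt-Tn and mt-Tc among them, held 70.23% to 81.55% of tRNA fragments. Counting ignored strand, so these fragments cannot be told apart from RNA of the opposite strand.

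Of the remaining tRNA genes, mt-Tm (methionine) was the only tested mitochondrial gene with both knockouts below both controls, at 14, 27, 10 and 8 fragments. That is 1 of 17, beside 11.2% of all genes, and none had both knockouts above, beside 19.5%. The fitted log2 fold change of mt-Tm was -1.20 ± 1.81 (standard error; edgeR, adjusted p = 0.9997). mt-Tl1 (leucine) had 7, 29, 8 and 20 fragments, mt-Ti (isoleucine) 9, 11, 4 and 10, mt-Tq (glutamine) 2, 16, 1 and 1, and mt-Ta (alanine) 1, 22, 1 and 2. Control 2 was again the highest in each, by 1 fragment for mt-Ti.

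Related nuclear genes, with cytosolic ribosomal proteins and the methylation writer complex included, showed no called difference either. Of 250 tested, 0 passed, and none had an unadjusted p under 0.05 (edgeR). Of 77 nuclear subunits of complexes I to V, 66 were tested, 33 with a fold change above 0 and 33 below, with a median of -0.02 beside 0.20 for all genes. Complex I had a median of -0.30 over 32 genes, complex II -0.10 over 4, complex III -0.53 over 7, complex IV 0.19 over 10 and complex V 0.43 over 13. Without control 2 the medians were -0.11 over 33 genes, -0.08 over 4, 0.2 over 7, 0.15 over 10 and 0.17 over 15. Complex III thus changed sign. The complexes had medians on both sides of 0 either way, and with all libraries the 11 tested mitochondrial mRNA genes were below it. Without control 2 those 11 were all above 0 (median 0.37), and the nuclear subunits split into 34 above and 35 below, beside a median of 0.05 for all genes. Over all related nuclear genes the split was 114 above and 136 below with control 2, and 142 above and 120 below without it. Summed levels of the nuclear subunits were 5073 and 7831 CPM in controls 1 and 2, with 4709 and 5724 in knockouts 1 and 2, the same order as the mitochondrial sum of 27330, 76120, 24670 and 45150. The range was narrower for the nuclear subunits, of which 4, 20, 4 and 9 had no fragment. The most abundant of complexes II, III and IV, Sdhd (589.2, 1054, 658.2 and 843 CPM), Uqcrfs1 (490.9, 808.5, 617.2 and 627.9) and Cox6c (96.48, 212.2, 80.12 and 147.5), were also highest in control 2.

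Single subunits followed no common course. Ndufb11, an accessory complex I subunit, had 324.2, 711.1, 212.9 and 335.9 CPM, and Uqcrb of complex III 123.3, 605.8, 128.0 and 156.7, both highest in control 2. Atp5b, the catalytic ATP synthase subunit, had 225.9, 231.8, 286.3 and 206.6, and Sdha, the flavoprotein of complex II, which has no mitochondrially encoded subunit, was lowest in control 2 at 247.3, 68.89, 292.3 and 193.8. Cox8a, a small complex IV subunit, had 9.823 and 22.7 CPM in controls and 3.744 and 5.201 in knockouts, or -1.85 ± 1.55 (standard error) on the log2 scale (edgeR, adjusted p = 0.9997). Ndufs1, the largest core subunit of complex I, had 75, 260, 29 and 4 fragments, or -3.37 ± 1.68, also without overlap and with the same adjusted p. Without control 2 the log2 fold changes were -1.14 for Cox8a and -2.0 for Ndufs1. Both genes are named for the lowest p in the list of their complex, so their lack of overlap follows from that choice. Of the 66 tested nuclear subunits, 8 had both knockouts below both controls, beside 11.2% of all genes. Both were above for 5, beside 19.5%. Usmg5, an ATP synthase-associated protein, was at 81.04 CPM in control 2 and between 6.856 and 7.238 in the other 3.

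Among 15 genes of mitochondrial transcription and DNA maintenance, 11 were tested, with 5 fold changes above 0, 6 below and a median of -0.38. Both knockouts were below both controls for 4 of the 11, beside 11.2% of all genes, and above for 2, beside 19.5%. Tfam, which packages mitochondrial DNA and starts its transcription, had 63.52 and 76.29 CPM in controls and 34.44 and 26.0 in knockouts (log2 fold change -1.21, standard error 0.89). Twnk, the mitochondrial DNA helicase, had 48.46 and 76.29 CPM against 14.98 and 14.66 (log2 fold change -2.07, standard error 1.02). Neither passed the test (edgeR, adjusted p = 0.9997), though the groups did not overlap for either. Without control 2 the log2 fold changes were -1.08 for Tfam and -1.72 for Twnk, and the list had 5 above 0 and 7 below with a median of -0.12. The list's summed level, 240.8, 272.7, 161.5 and 137.1 CPM, did not follow the order of the mitochondrial fragments, since knockout 2 was lowest. Of the 15 genes, 1, 8, 1 and 1 had no fragment, so fewer genes carried the sum in control 2.

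Genes of mitochondrial RNA processing and decay (13 of 21 tested, median 0.61) and of rRNA and tRNA modification (14 of 21, median 0.18) had 7 and 10 fold changes above 0. Without control 2 these became 7 of 13 (median 0.01) and 6 of 16 (median -0.32). With all libraries, both knockouts were above both controls for 5 of the 13 processing and decay genes, beside 19.5% of all genes. They were below for 1, beside 11.2%. Of the 14 modification genes, 1 had both knockouts above and 2 had both below, beside the same 19.5% and 11.2%. Of the 21 processing and decay genes, 3, 9, 2 and 3 had no fragment, and of the 21 modification genes 3, 12, 2 and 6. Control 2 thus lacked the most genes of both lists. Rexo2, an exonuclease of short RNAs, had 98.89, 257.1, 80.87 and 119.4 CPM, highest in control 2. Fastkd2, an RNA-binding protein of mitochondrial RNA granules, had 12 and 17 fragments in knockouts and 0 in either control, close to the limit of detection. It is named for the lowest p of its list and passed the low-count filter through the knockouts only. Alkbh1, a demethylase that acts on mitochondrial tRNA, was at 200.3 CPM in control 2 and 9.456 to 20.96 in the other libraries. Of the 8 writer-complex genes that work with Mettl3 or include it, 5 were tested, all with fold changes above 0 and a median of 0.29, while without control 2 only 2 of 5 were above 0 (median -0.19). Rbm15, an adaptor of that complex, had 119.4, 53.32, 105.1 and 105.4 CPM, and Wtap, which anchors it, 7, 0, 12 and 89 fragments, so both were lowest in control 2.

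Proteins of the mitochondrial ribosome (65 of 78 tested) had 31 fold changes above 0, 34 below and a median of -0.02. Their summed level was 2799 and 4036 CPM in controls 1 and 2, with 2305 and 3213 in knockouts 1 and 2, ordered like the rRNAs they bind. Mrpl54, the most abundant, had 193.6, 335.8, 109.6 and 187.2 CPM, and Mrpl19, with the lowest p of the list, 72.25, 202.7, 59.9 and 40.42. Cytosolic ribosomal proteins, which do not work in mitochondria, had the same order, at 7912, 15200, 6808 and 10810 CPM, with 23 of 76 fold changes above 0 and a median of -0.32. Rps3a1, the most abundant, had 885.4, 2310, 824.9 and 1138 CPM, and Rps23, with the lowest p, 15.94, 52.0, 3.993 and 7.801. The library order of the mitochondrial genes was therefore shared with this list too. Without control 2, 36 of 69 mitochondrial ribosomal proteins were above 0 (median 0.04) and 52 of 78 cytosolic ones (median 0.17).

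**Figure D5:**
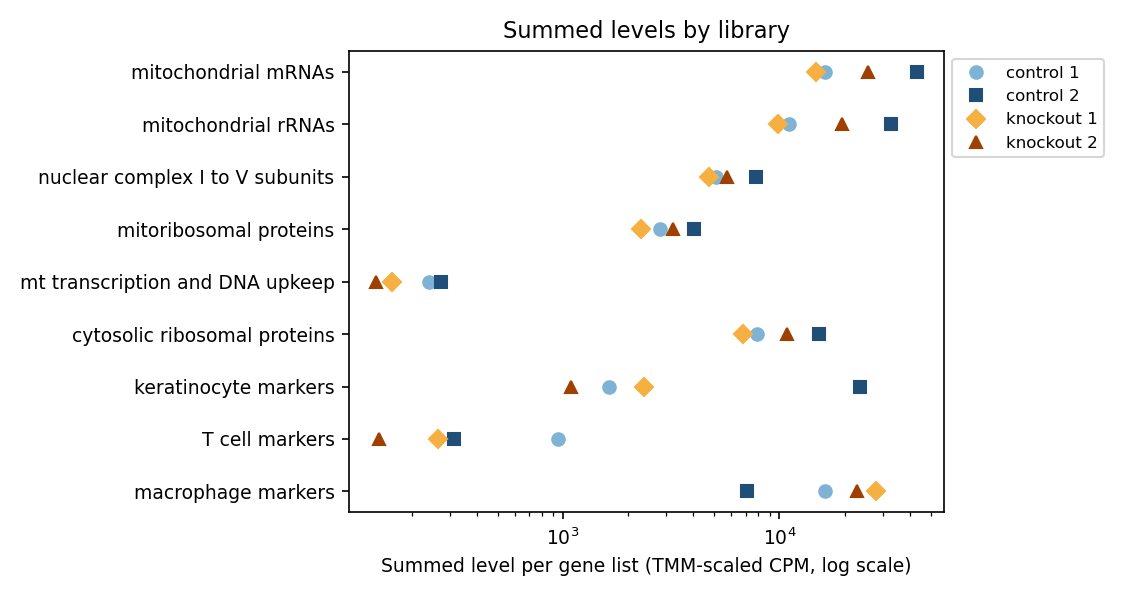
Summed level of each gene list (TMM-scaled CPM, log scale) in each library. The sum in control 2 is highest for the mitochondrial classes, the nuclear subunits, mitochondrial transcription genes, both kinds of ribosomal protein and the keratinocyte markers, and lowest for the macrophage markers. In control 2, 20 of 77 nuclear subunits, 8 of 15 transcription genes, 16 of 78 mitochondrial and 9 of 89 cytosolic ribosomal proteins were at 0. Each of these counts was higher than in any other library.

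Markers of other cell types also differed between libraries, and only the adipocyte list had the library order of the mitochondrial share. Keratinocyte markers were highest in control 2, where 7 of 8 were detected, and lowest in knockout 2, led by Perp at 226.6, 6580, 442.5 and 100.5 CPM. Macrophage markers, led by Lyz2 at 9378, 3876, 14350 and 10810 CPM, were lowest there with 8 of 8 detected. Fibroblast markers summed to 10200 and 2452 CPM in controls and 4697 and 5280 in knockouts, with Pdgfra at 0 in control 2 and 5 of 6 detected there. Adipocyte markers had 341 and 1668 CPM in controls and 321.7 and 1200 in knockouts, led by Lpl at 293.8, 921.2, 152.3 and 414.4, with Cidec and Ucp1 at 0 in control 2. Neutrophil markers were at 251 to 354.3 CPM in controls and 717.5 to 1578 in knockouts, led by Mmp8 (342.7, 231.5, 1527 and 642.8 CPM), with S100a9 and Csf3r at 0 in control 2. Endothelial markers were between 6.335 and 37.12 CPM, with Cdh5, Kdr and Tek at 0 in control 2. Skeletal muscle markers, led by Acta1, summed to 77.06, 1.747 and 105 CPM in control 1, knockout 1 and knockout 2, and all 6 were at 0 in control 2. Markers at 0 were not confined to control 2. In the same library order they numbered 3, 2, 1 and 2 for neutrophils and 1, 2, 0 and 1 for adipocytes. Skeletal muscle had 3, 6, 4 and 4 at 0, and endothelium 1, 3, 0 and 1. Keratinocytes had 0, 1, 1 and 1 at 0, and fibroblasts 0, 1, 0 and 1. The part of these cell types in the mitochondrial shares was not tested.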

How the data were processed

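Counts are the deposited values: raw fragments per annotated exon entry. Per the file headers, they come from featureCounts 2.0.1 with GENCODE M23 on GRCm38, run unstranded on read pairs of which both mates aligned without chimerism, leaving out fragments that aligned to several places or overlapped several entries. Per the submitters' processing notes, STAR 2.7.9a was the aligner and Trim Galore 0.6.7 the trimmer. Handling of duplicates is not stated.

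From these, exon counts were summed by gene (55154 of 55335 identifiers matched a symbol) and tested with edgeR 4.0.16 (R 4.3.3: filterByExpr at a minimum count of 10, TMM, quasi-likelihood, Benjamini-Hochberg over 12434 genes at 0.05, two-sided). DESeq2 1.42.0 and limma-voom (limma 3.58.1) were alternatives. Standard errors are the log2 fold change divided by the root of edgeR's F. Shares were compared by exact permutation over libraries (SciPy 1.17.1). Nuclear copies were sought among 141730 nuclear GENCODE M21 transcripts by shared 50-base windows and with BLAST 2.17.0 (at least 250 bases at 90% identity). Totals were 4537006, 3614418, 4316904 and 4353365 fragments in control 1, control 2, knockout 1 and knockout 2, numbered in accession order only to name them. No library was a copy of another (chi-square per degree of freedom 40.1 to 164.1 between pairs over all genes), which says nothing of separate mice.

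Named are all mitochondrial rRNA and mRNA genes, tRNA genes with 10 or more fragments in a library, Mettl3, and of each nuclear list the members with the highest mean and the lowest p. mt-Tf, mt-Td and mt-Tk were named after their values were seen. Members and lists were chosen with earlier results of these data known.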

Additional observations from a re-analysis of the deposited data

How the results depend on the processing

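No mitochondrial gene and no gene of the nuclear lists was called in any setting run, and the lowest adjusted p of a mitochondrial gene was 0.0752 (edgeR, mt-Atp6 without control 1). Over all genes, 0 calls became 27 without the low-count filter, 17 with DESeq2 and 0 to 4 with 1 library left out (2 without knockout 1, 4 without knockout 2). The log2 fold change of mt-Tp turned to 0.02 without the filter and 0.12 with limma-voom. Without mt-Co1, the differences in share of mitochondrial fragments turned to 1.42 percentage points for rRNA, 0.33 for mt-Nd1 and 0.0182 for mt-Nd4. In the other settings 192 values kept their direction and call, among them the shares without the 6 nearly uncounted mRNA genes, an alternative chosen after seeing the data. With 1 library left out, 127 kept them and 39 changed sign, 28 of those without control 2. The cause of these changes was not tested. The tRNA genes and the 6 nearly uncounted mRNA genes rest on few fragments, whatever the reason, and counting with multiple alignments was not possible from the deposited tables.

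With 1 library left out, the difference in share of counted fragments (knockout minus control) ran from -4.64 to 0.579 percentage points for all mitochondrial genes, -2.04 to 0.282 for rRNA, -2.59 to 0.296 for mRNA and -0.00978 to 0.00127 for tRNA. The rRNA share of mitochondrial fragments differed by -1.94 to 1.19 points. Shares that kept their sign ranged, in points, as mt-Co1 1.37 to 5.07, mt-Nd2 -2.05 to -0.645, mt-Rnr1 -1.85 to -0.0403, mt-Nd4 -0.396 to -0.0102, mt-Nd6 -0.856 to -0.17 and mt-Nd4l -0.00392 to -0.00327. Those that changed sign ranged as mt-Rnr2 -0.115 to 1.25, mt-Nd1 -0.837 to 0.533, mt-Co2 -0.0206 to 0.00805, mt-Atp8 -0.0125 to 0.000395, mt-Atp6 -0.099 to 0.0185, mt-Co3 -0.0181 to 0.0207, mt-Nd3 -0.0113 to 0.000937, mt-Nd5 -2.25 to 0.0306, mt-Cytb -0.596 to 1.69. The log2 fold change of mt-Tm ran from -1.62 to -0.48 and kept its sign, and those that changed sign ranged as mt-Rnr1 -1.29 to 0.38, mt-Rnr2 -1.05 to 0.40, mt-Tl1 -1.12 to 1.11, mt-Nd1 -1.01 to 0.23, mt-Nd2 -1.73 to 0.16, mt-Tn -3.47 to 0.29, mt-Co1 -0.60 to 0.42, mt-Co2 -2.43 to 1.04, mt-Atp6 -2.92 to 1.04, mt-Co3 -1.83 to 1.51, mt-Nd3 -2.17 to 0.41, mt-Nd4 -1.12 to 0.33, mt-Nd5 -1.48 to 0.37, mt-Nd6 -1.91 to 0.21, mt-Cytb -0.88 to 0.26, mt-Tp -0.69 to 0.91. The median over rRNA and mRNA genes ran from -1.48 to 0.38, beside -0.01 to 1.72 for all genes.

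No paired analysis was possible because the labels give the libraries no replicate numbers.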
